A study of Mus musculus with 10 samples.

Results

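The 9 genes described here are *Scube1*, *Scube2*, *Scube3*, *Hhip*, *Ptch1*, *Arhgap36*, *Gli1*, *Gli2* and *Gli3*, which release, bind or transduce hedgehog signals or report their strength. They were taken by symbol from the 53465 genes of a raw count table, and all 9 passed the filter on low counts that left 16426 genes. The table comes from bulk RNA-seq of whole pinna prominences micro-dissected at E14.5, when the outer ear is a small outgrowth of mesenchyme, cartilage and muscle cells under an epidermis. It compares 5 wild-type (WT) libraries with 5 libraries of the knock-in mEC1dup/dup, in which CRISPR/Cas9 placed an additional copy of mEC1, an enhancer of the transcription factor gene *Hmx1*, on each allele. Mice were kept on a C57BL/6J background, no other allele or treatment is named for either group, and the number of founders behind the mEC1dup/dup line is not given in the sources used here. The duplication is in the germline, so it is not limited to a cell type. The list was chosen by pathway role together with the difference between the genotypes in CPM and in edgeR's test in these same libraries. The differences of the 9 genes between the genotypes are therefore a description and carry no p-value.

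Hedgehog ligands are secreted lipid-modified proteins. Their receptor PTCH1 holds the membrane protein SMO inactive until a ligand binds, after which GLI transcription factors stop being processed into repressors and activate target genes. *Gli1*, *Ptch1* and *Hhip* are themselves targets, so their RNA is widely read as a measure of the response, and PTCH1 and HHIP both bind the ligand and limit its spread. SCUBE proteins are secreted, and SCUBE2 acts with DISP1 in releasing the ligand from the cells that make it. Protein kinase A (PKA) marks GLI proteins for processing, GPR161 raises PKA activity in the cilium, and ARHGAP36 binds and inhibits the catalytic subunit of PKA. In the embryonic head, hedgehog signals act on neural crest-derived mesenchyme, cartilage and hair placodes.

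Total counts were 17536112 to 18265354 per WT library and 17461544 to 18462073 per mEC1dup/dup library. *Hmx1* had 21.7 to 29.1 CPM (counts scaled to library size) in WT and 52.8 to 77.5 CPM in mEC1dup/dup, so the enhancer's gene separated the libraries as labelled. All 9 fixed markers of pinna mesenchyme were detected in every library. The sexes were not balanced. *Xist*, which is transcribed in female cells, had 2 to 5 counts in the WT libraries, and 12812, 19040, 18165, 2096 and 0 counts in mEC1dup/dup replicates 1 to 5. The Y-linked genes *Ddx3y*, *Kdm5d*, *Uty* and *Eif2s3y* together had 3088 to 3658 counts in WT, and 639, 36, 31, 3024 and 3293 in the same mEC1dup/dup replicates, so that replicates 1 and 4 held RNA with both marks, although the study's methods describe 5 independent embryos per genotype. Values for mEC1dup/dup replicate 5, the mEC1dup/dup library without *Xist*, are given beside the results for this reason.

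Of the 9 genes, *Scube1* was called higher and *Arhgap36* and *Hhip* were called lower in mEC1dup/dup. A gene was called at an adjusted p of at most 0.05 in edgeR's quasi-likelihood test over all genes, with an average log2 CPM of at least 1. The standard errors given below come from the same test. Over the 16426 genes tested this rule called 0.834% higher and 1.81% lower. All 5 mEC1dup/dup libraries lay above all 5 WT libraries in 2.33% of the genes tested, and below them in 2.75%. Since this comparison entered the choice of the genes, nothing is read from these shares. The median log2 fold change of the 9 genes was 0.01, against -0.0041 for all genes tested.

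The stretches before the transcription starts of these 3 genes are shown because they differ in base composition in a way that was not used to choose them. Each line gives the 100 bases before a start annotated in RefSeq (build GRCm38.p6), 5′ to 3′ on the strand of the gene, with CpG dinucleotides in capitals. *Arhgap36* has a pair of annotated starts.
*Scube1*, chr15:83725040-83725139, minus strand: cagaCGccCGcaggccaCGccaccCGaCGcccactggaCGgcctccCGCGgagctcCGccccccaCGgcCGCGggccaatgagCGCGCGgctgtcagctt
*Hhip*, chr8:80058009-80058108, minus strand: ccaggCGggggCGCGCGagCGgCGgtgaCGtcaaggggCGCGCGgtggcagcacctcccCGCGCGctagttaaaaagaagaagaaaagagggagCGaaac
*Arhgap36* upstream start, chrX:49463845-49463944, plus strand: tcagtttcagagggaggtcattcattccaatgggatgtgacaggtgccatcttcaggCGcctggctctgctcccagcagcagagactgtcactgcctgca
*Arhgap36* downstream start, chrX:49470350-49470449, plus strand: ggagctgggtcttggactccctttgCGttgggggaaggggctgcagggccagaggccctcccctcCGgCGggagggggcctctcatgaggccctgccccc

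These stretches held 15 CpG for *Scube1*, 14 for *Hhip*, and 1 and 3 for the *Arhgap36* starts. Over the whole RefSeq window of 300 bases, from 250 before to 50 after a start, *Ptch1* had the most CpG (47) and *Arhgap36* the fewest (3 and 7), while the median of all 32851 windows was 7. The other members with a window, *Gli2*, *Gli3*, *Hhip*, *Scube1*, *Scube2* and *Scube3*, had 20 to 39. RefSeq windows were matched for 8 of the 9 genes, the exception being *Gli1*. The consensus site of GLI proteins, GACCACCCA on either strand, was in none of the 9 windows of these 8 genes and in 0.253% of all windows. Its core CCACCCA was likewise in none of the 9, and in 9.30% of all windows. CAAGTG, the core that HMX proteins bind, was searched on both strands and was found in 13.6% of all windows and in 1 of the 9. That window belonged to the upstream start of *Arhgap36*, where the match began at base 8 after the start and does not overlap the other motifs. Its surroundings are shown with the match in capitals.
*Arhgap36* upstream start, chrX:49463940-49463969, plus strand: ctgcaaatccccCAAGTGctatgctggtct

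*Arhgap36* (ENSMUSG00000036198), which encodes the PKA inhibitor, lies on the plus strand of chrX:48536999-48589121 in GRCm39, the build of the counts. It had 38.2, 30.2, 35.0, 44.1 and 49.1 CPM in WT replicates 1 to 5. In mEC1dup/dup replicates 1 to 5 it had 15.1, 11.7, 13.1, 8.85 and 20.4 CPM. The highest mEC1dup/dup library, replicate 5, was thus below the lowest WT library. The lowest was replicate 4, which held 3024 Y-linked and 2096 *Xist* counts. The WT mean was 39.3 ± 7.42 CPM and the mEC1dup/dup mean 13.8 ± 4.33 CPM (SD, n = 5 each), or 35.2% of the WT mean. The log2 fold change was -1.51 (standard error 0.19), and no other of the 9 genes differed by as much. The call held in all 10 fits that left out a library, with log2 fold changes from -1.69 to -1.38. It was lost when log2 CPM of *Xist* was added to the fit (-1.08, standard error 0.27), and also among the libraries without *Xist*, where replicate 5 alone stood against WT (-0.94, standard error 0.24) and was assumed to vary as the WT libraries do.

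**Figure D1:**
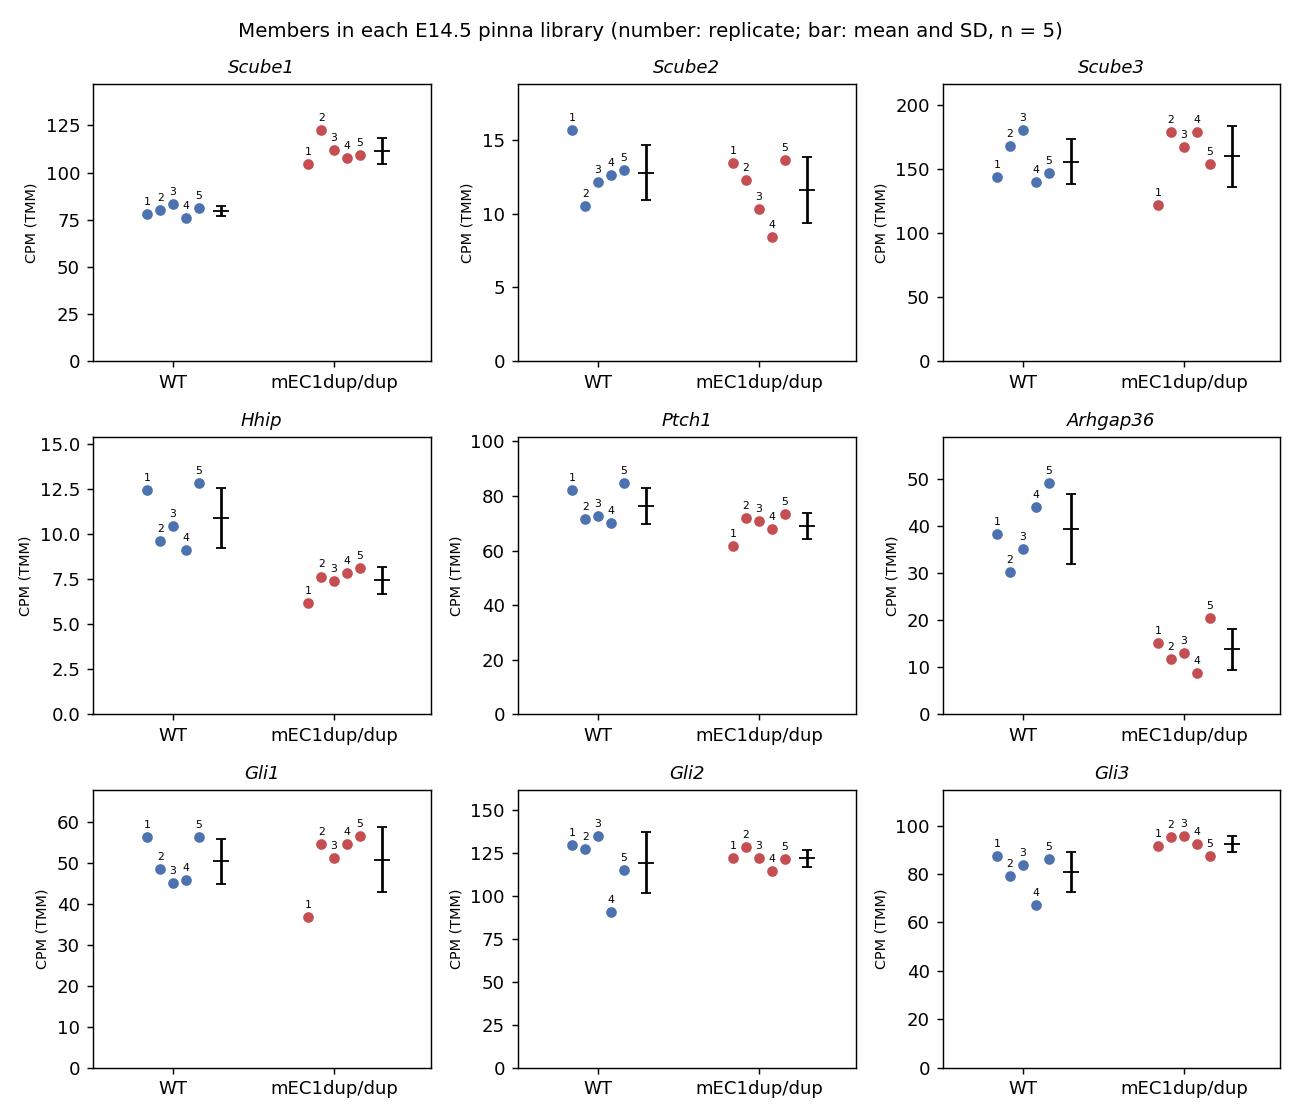
CPM (TMM-normalized, vertical axis from 0) of each member in each library, numbered by replicate, with the mean and SD of 5 libraries beside the points. *Scube1* lies higher in all mEC1dup/dup libraries, *Hhip* and *Arhgap36* lie lower, and *Gli1* is lowest in mEC1dup/dup replicate 1 (36.8 CPM).

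*Arhgap36* varied with skeletal muscle RNA within each genotype. Over the 10 libraries, the deviations of its log2 CPM from the genotype means followed those of 8 summed striated muscle markers (Pearson r = 0.87, Spearman rho = 0.90), and r was 0.98 without WT replicate 5 and mEC1dup/dup replicate 1, the libraries farthest from the median of the markers. They also followed 6 summed erythroid markers (r = 0.83). These libraries share dissection, depth and cell composition, and the values are descriptions over 10 points. Among 14083 other genes, those whose deviations were most like *Arhgap36* were *Mrpl19* (r = 0.98), *Tnni2* (0.96), *Trim72* (0.96), *Camk2a* (0.96) and *Igf2os* (0.95). *Tnni2* encodes a fast skeletal muscle troponin and *Trim72* a membrane repair protein of striated muscle. In bulk tissue, fewer cells of a type and less RNA per cell cannot be told apart.

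The summed muscle markers ranged from 1603 to 2481 CPM in WT and from 1164 to 1834 CPM in mEC1dup/dup, and the groups overlapped. Of these 8 markers, *Myh3* and *Ckm* were called lower, none was called higher and none was at 0. The log2 fold change was negative in 6 of them and positive in 2, *Myod1* (0.09) and *Myog* (0.12). Per 1000 CPM of the summed markers, *Arhgap36* had 18.9 to 23.1 CPM in WT and 7.60 to 11.96 CPM in mEC1dup/dup. The groups did not overlap on this scale, with a mean in mEC1dup/dup of 44.5% of the WT mean, and the part of muscle content in the *Arhgap36* difference was not tested. They did not overlap per pinna mesenchyme marker sum either, but overlapped per epidermal marker sum (20.96 to 50.9 CPM in WT, 12.3 to 26.5 CPM in mEC1dup/dup) and per chondrocyte marker sum (4.58 to 10.5 and 1.45 to 7.32 CPM). Summed epidermal markers were themselves lower in all mEC1dup/dup libraries, and their part in the result was not tested. The 6 summed erythroid markers ranged from 309 to 526 CPM in WT and from 523 to 1025 CPM in mEC1dup/dup, with *Hbb-y* and *Hba-x* called higher, so that between genotypes they went opposite to *Arhgap36*. None of them was at 0, and their part in the result was not tested.

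**Figure D2:**
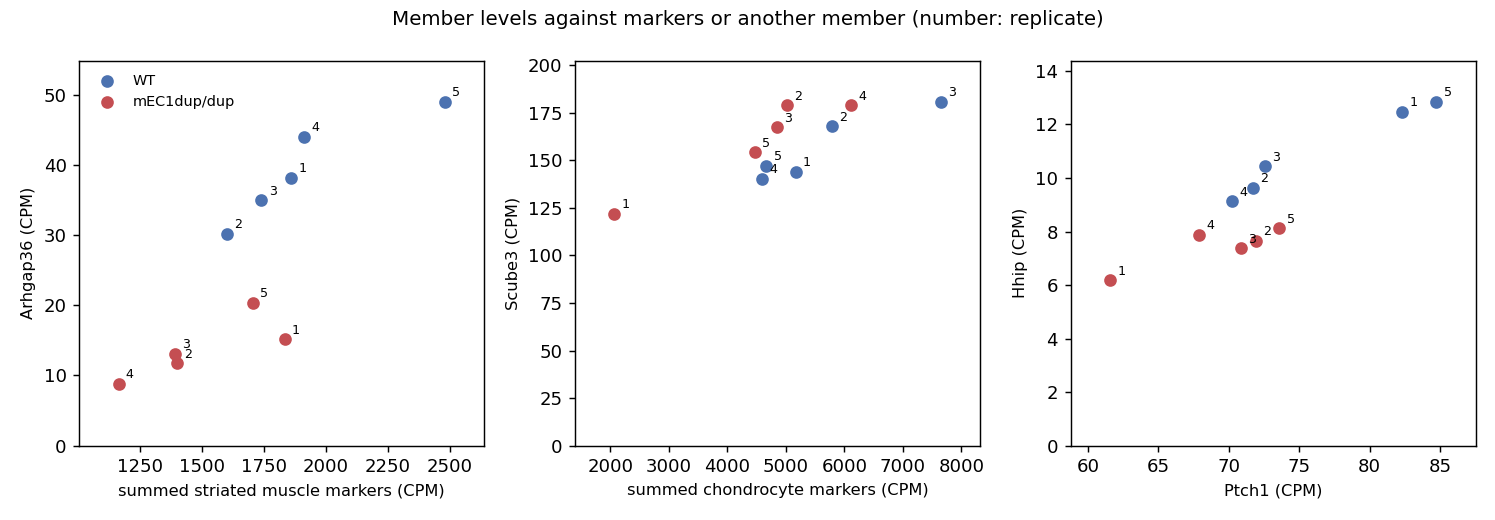
Each point is a library, numbered by replicate: *Arhgap36* against summed striated muscle markers, *Scube3* against summed chondrocyte markers, and *Hhip* against *Ptch1*, all in CPM with vertical axes from 0. *Arhgap36* and *Hhip* lie lower in mEC1dup/dup at like values of the horizontal axis, while the genotypes mix for *Scube3*.

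*Hhip* (ENSMUSG00000064325, minus strand of chr8:80692480-80784658), the secreted and membrane-bound antagonist of hedgehog ligands, had 12.5, 9.63, 10.4, 9.14 and 12.8 CPM in WT replicates 1 to 5. The values were 6.17, 7.66, 7.39, 7.87 and 8.12 CPM in mEC1dup/dup replicates 1 to 5, and the groups did not overlap. Replicate 5, without *Xist*, was again the highest of its group. These rest on 165 to 232 counts per WT library and 108 to 150 per mEC1dup/dup library. The mean in mEC1dup/dup was 68.2% of that in WT, and the log2 fold change was -0.55 (standard error 0.12). The call was less firm than that of *Arhgap36*: it was lost in 6 of the 10 fits that left out a library, those without WT replicates 1, 3 or 5 or mEC1dup/dup replicates 2, 3 or 4, although the log2 fold change stayed between -0.61 and -0.48. With the *Xist* covariate it was -0.42 (standard error 0.20) and not called. Epidermal markers moved with it across genotypes, their sum being 964 to 1825 CPM in WT and 717 to 943 CPM in mEC1dup/dup with 5 of 9 markers called lower, none called higher and none at 0. Per 1000 CPM of these markers *Hhip* had 6.77 to 13.3 CPM in WT and 6.54 to 10.98 CPM in mEC1dup/dup. The mEC1dup/dup mean was 108.6% of that in WT, so the direction turned on this scale, and the groups overlapped. They also overlapped per muscle marker sum, where the mEC1dup/dup mean was 89.5% of that in WT, and per chondrocyte marker sum (1.37 to 2.75 CPM in WT, 1.29 to 2.99 CPM in mEC1dup/dup), but not per pinna mesenchyme marker sum, with 5.08 to 7.48 CPM in WT and 2.95 to 4.597 CPM in mEC1dup/dup. Within the genotypes its deviations and those of the epidermal markers had r = -0.08 over 10 libraries, and their part in the result was not tested.

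*Ptch1* (ENSMUSG00000021466, minus strand of chr13:63656142-63721412), the receptor and the other antagonist made in response to the ligand, was not called. It had 82.3, 71.7, 72.6, 70.2 and 84.7 CPM in WT and 61.5, 71.9, 70.9, 67.9 and 73.6 CPM in mEC1dup/dup. The groups overlapped, and 4 of 5 mEC1dup/dup libraries lay below the WT median. The log2 fold change was -0.14 (standard error 0.06). The ratio of *Hhip* to *Ptch1* in CPM was 0.130 to 0.152 in WT and 0.100 to 0.116 in mEC1dup/dup, a description that rests on the same values and was not tested.

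*Gli1* (ENSMUSG00000025407, minus strand of chr10:127165751-127177865), the target most often used to read the pathway, had 56.3, 48.5, 45.1, 45.7 and 56.2 CPM in WT. In mEC1dup/dup it had 36.8, 54.6, 51.2, 54.6 and 56.4 CPM. Replicate 1 of mEC1dup/dup was the lowest of all 10 libraries, and the other 4 lay within or just above the WT range. The log2 fold change was 0.01 (standard error 0.11), and 0.11 without that library. Exons of genes on the other strand cover 7.34% of the exonic bases of *Gli1* (*Arhgap9* and *Gm47200*). They cover 5.13% for *Gli3*, 3.31% for *Hhip*, 2.24% for *Scube3* and 0.174% for *Gli2*. For *Scube1*, *Scube2*, *Ptch1* and *Arhgap36* they cover none. Reads of genes on the other strand cannot be told apart where the counting ignores strand.

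Although only *Hhip* of these 3 targets was called, they varied together among libraries of the same genotype. The deviations of *Hhip* and *Ptch1* had r = 0.95 over 10 libraries (rho = 0.96; r = 0.90 without mEC1dup/dup replicate 1 and WT replicate 5), and of 14083 other genes none was closer to *Ptch1* than *Hhip*. The value was 0.88 for *Ptch1* with *Gli1* and 0.87 for *Gli1* with *Hhip*, and within each genotype the 3 pairs had r of 0.89 to 0.99. After *Hhip*, the genes most like *Ptch1* were *Trib1*, *Mllt1*, *Ap2a1* and *Etv5* (r = 0.94 to 0.91), and those most like *Gli1* were *Nhej1* (0.99), *Wnk2*, *Shisa2*, *Mindy4* and the forkhead gene *Foxd2* (0.93 to 0.92). Such genes were picked as the highest of 14083 values, and whether picking alone gives r of this size was not tested. WT replicates 1 and 5 were the highest WT libraries for all 3 targets, and mEC1dup/dup replicate 1 was the lowest of its group for all 3. That library also had the lowest sum of 6 chondrocyte markers, 2067 CPM against 4478 to 7646 CPM in the other 9. *Gli1* and the chondrocyte markers had r = 0.60 over 10 libraries and -0.11 without mEC1dup/dup replicate 1, so this relation rests on that library.

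**Figure D3:**
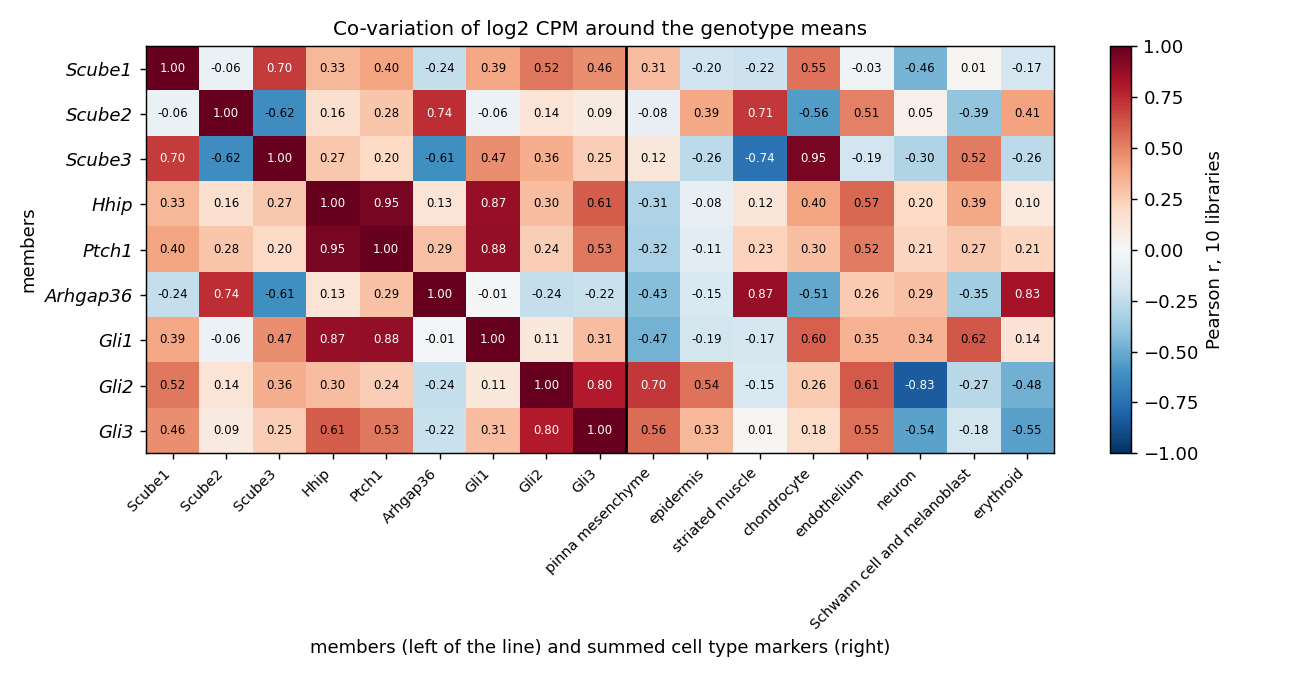
Pearson r between the log2 CPM of the members (rows) and that of the members and of summed cell type markers (columns), after subtracting the mean of each genotype, over 10 libraries. The block of *Hhip*, *Ptch1* and *Gli1* (0.87 to 0.95), *Scube3* with chondrocyte markers (0.95) and *Arhgap36* with muscle markers (0.87) are among the highest values.

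*Gli2* and *Gli3*, which encode the activator and the main repressor of the pathway before *Gli1* is made, were not called. *Gli2* (ENSMUSG00000048402, minus strand of chr1:118761858-118982598) had 129, 127, 135, 90.6 and 115 CPM in WT and 122, 128, 122, 115 and 122 CPM in mEC1dup/dup, and the log2 fold change was 0.03 (standard error 0.09). *Gli3* (ENSMUSG00000021318, plus strand of chr13:15637809-15904611) had 87.6, 79.0, 83.7, 67.0 and 86.1 CPM in WT and 91.7, 95.2, 95.6, 92.2 and 87.2 CPM in mEC1dup/dup. All mEC1dup/dup libraries lay above the WT median of *Gli3* and 4 of 5 above every WT library, and the log2 fold change of 0.20 (standard error 0.06) was called in none of the 20 alternative fits. WT replicate 4 was the lowest library for both genes. It also had the highest sum of 6 neuronal markers, 503 CPM against 39.4 to 239 CPM in the other 9, and *Gli2* and these markers had r = -0.83 (-0.56 without WT replicates 3 and 4).

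*Scube1* (ENSMUSG00000016763, minus strand of chr15:83486786-83609245) encodes a secreted and cell surface CUB and EGF domain protein. It had 78.3, 80.4, 83.2, 75.9 and 81.1 CPM in WT replicates 1 to 5, a coefficient of variation of 3.51%. The mEC1dup/dup replicates had 105, 123, 112, 108 and 109 CPM, all above the WT libraries, and replicate 5 stood at the median of its group. The mean in mEC1dup/dup was 139% of that in WT, and the log2 fold change was 0.48 (standard error 0.05). The call held in all 10 fits that left out a library (0.44 to 0.50). With the *Xist* covariate the log2 fold change was 0.44 (standard error 0.07), and it was 0.46 (standard error 0.07) among the libraries without *Xist*; neither fit called it, and no member was called in either. Pinna mesenchyme markers summed to 1603 to 1895 CPM in WT and to 1767 to 2094 CPM in mEC1dup/dup, with *Hmx1* alone called among 9. Per 1000 CPM of their sum, which includes *Hmx1*, *Scube1* had 42.4 to 47.4 CPM in WT and 49.9 to 61.9 CPM in mEC1dup/dup. The part of mesenchyme content in the *Scube1* difference was not tested.

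Its relatives were not called. *Scube2* (ENSMUSG00000007279, minus strand of chr7:109395631-109464906), the family member tied to ligand release, had 15.7, 10.5, 12.1, 12.6 and 13.0 CPM in WT and 13.4, 12.2, 10.3, 8.41 and 13.6 CPM in mEC1dup/dup, with overlap and a log2 fold change of -0.14 (standard error 0.14). *Scube3* (ENSMUSG00000038677, plus strand of chr17:28360946-28393833) had 144, 168, 181, 140 and 147 CPM in WT and 122, 179, 167, 179 and 154 CPM in mEC1dup/dup, and the log2 fold change was 0.04 (standard error 0.10). The ratio of *Scube1* to *Scube3* was 0.460 to 0.551 in WT and 0.603 to 0.857 in mEC1dup/dup. *Scube3* followed the chondrocyte markers closely within the genotypes (r = 0.95, rho = 0.96, and 0.92 without mEC1dup/dup replicates 1 and 4). *Scube2* followed the muscle markers (r = 0.71 over 10 libraries), with r of 0.39 among the WT and 0.92 among the mEC1dup/dup libraries, and ran opposite to *Scube3* (r = -0.62). For *Arhgap36* and the muscle markers these values were 0.92 and 0.87.

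Levels of different genes were compared per length, as RPKM, which is CPM divided by the exon length in kilobases. In WT the order was *Scube3* (17.2 ± 1.93 RPKM, SD, n = 5), *Gli2* (14.8), *Gli1* (10.03), *Arhgap36* (9.56), *Gli3* (8.06), *Scube1* (6.47), *Ptch1* (5.18), *Scube2* (2.06) and *Hhip* (1.02 ± 0.16). The ranges of *Scube3* and *Gli2* overlapped, as did those of each neighbouring pair from *Gli1* down to *Scube1*. Compared library by library, *Gli3* lay above *Scube1* in every WT library, while the order of the other overlapping pairs changed between libraries. The steps from *Gli2* to *Gli1*, *Scube1* to *Ptch1*, *Ptch1* to *Scube2* and *Scube2* to *Hhip* were free of overlap. In mEC1dup/dup *Arhgap36* (3.37 ± 1.05 RPKM, SD, n = 5) came after *Ptch1* (4.70), in rank 7 in place of 4, and *Gli3* (9.23), *Scube1* (9.02) and *Ptch1* each moved up by 1 rank. The mEC1dup/dup range of *Arhgap36* overlapped those of *Ptch1* and *Scube2*, its neighbours. Compared library by library, it lay below *Ptch1* and above *Scube2* in every mEC1dup/dup library, closest to *Ptch1* in replicate 5 (4.96 against 4.996 RPKM). The mEC1dup/dup ranges of *Scube3* and *Gli2*, *Gli1* and *Gli3*, and *Gli3* and *Scube1* also overlapped. *Hhip* (0.69) was last in both genotypes. With the longest transcript in place of all exons, 5 of the 9 genes kept their rank in WT and 6 in mEC1dup/dup.

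**Figure D4:**
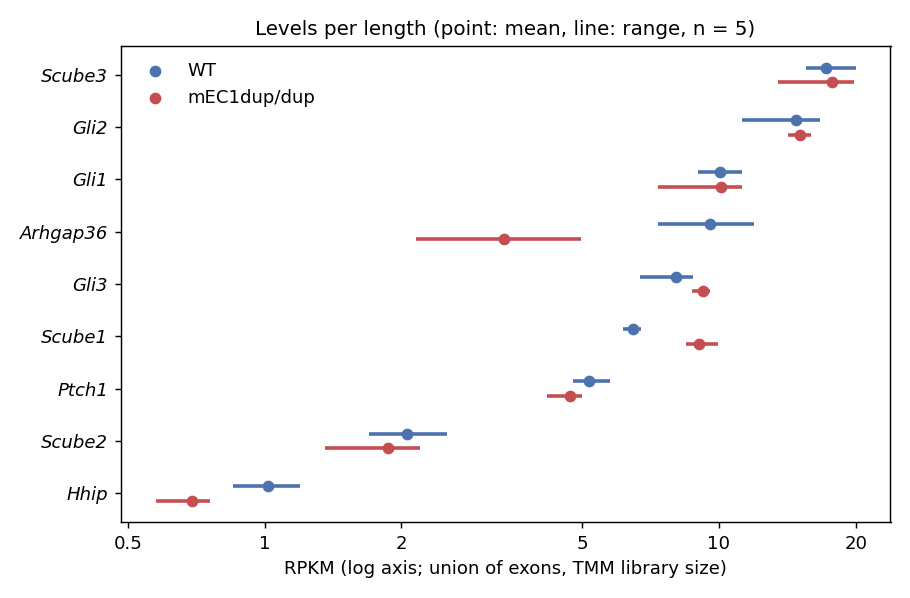
Level per length (RPKM, log axis) of each member, with the mean as a point and the range over 5 libraries as a line. *Scube3* leads and *Hhip* is last in both genotypes, and *Arhgap36* moves from 9.56 to 3.37 RPKM.

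The wider pathway was read from 74 other genes in 6 lists arranged by role in the pathway. Of these, 72 were tested, 1 was called higher and none was called lower. The members, among them the called *Scube1*, *Hhip* and *Arhgap36*, were set apart with this comparison known. These counts therefore describe the remaining genes and not the whole pathway. At an unadjusted p under 0.05 the count was 7 of these 72 in edgeR, against 2658 of all 16426 genes, and DESeq2's Wald test called the same gene and no other of the 72. The median log2 fold change of the 72 genes was 0.02, near the -0.0041 of all genes. It was positive in 41 of the 72 and negative in 31.

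The called gene was *Gpr161* (ENSMUSG00000040836), whose receptor keeps PKA active in the cilium. It had 54.9, 54.8, 55.9, 54.7 and 59.4 CPM in WT and 67.5, 69.7, 65.1, 66.7 and 60.5 CPM in mEC1dup/dup. The groups came closest at WT replicate 5 and mEC1dup/dup replicate 5 but did not overlap. On the log2 scale it rose by 0.24 ± 0.05 (standard error), at an adjusted p of 0.0176 in edgeR's quasi-likelihood test, with all 5 mEC1dup/dup libraries above the WT libraries. Over all alternatives the adjusted p was 0.000657 to 0.842. The call was lost without mEC1dup/dup replicate 2 (adjusted p = 0.0579) or 3 (0.0545), with the *Xist* covariate (0.641) and among the libraries without *Xist* (0.842), where the log2 fold change was 0.11. The other 14 genes of this list, which holds PKA subunits, PKA inhibitors and cAMP input, were not called. Of all 15, 12 had a negative log2 fold change and 3 a positive one, with a median of -0.05. The catalytic subunit gene *Prkaca* stood at 243 ± 16.1 CPM in WT against 228 ± 13.5 CPM in mEC1dup/dup (SD of 5 libraries), at an edgeR adjusted p of 0.438. The regulatory subunit gene *Prkar1a* stood at 456 ± 18.2 CPM against 442 ± 10.7 CPM, at an edgeR adjusted p of 0.590. *Pja2*, a ubiquitin ligase gene for PKA regulatory subunits, differed by -0.09 on the log2 scale (standard error 0.03, edgeR adjusted p = 0.162).

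Ligand RNA was low. *Shh* had 0 to 8 counts per WT library and 2 to 15 per mEC1dup/dup library and did not pass the filter, so a difference was not detectable at this depth. *Ihh*, the ligand of growing cartilage, stood at 1.43 ± 0.26 CPM (SD of 5 libraries, here and below) in WT and 1.602 ± 0.23 CPM in mEC1dup/dup (edgeR adjusted p = 0.747). *Dhh*, the ligand of Schwann cells, stood at 4.71 ± 1.27 CPM in WT and 3.42 ± 0.32 CPM in mEC1dup/dup. The log2 difference was -0.46 (standard error 0.18, edgeR adjusted p = 0.221). The highest library of *Dhh* was WT replicate 4, which also stood out in neuronal markers. None of 11 genes for processing, release and spread of the ligand was called. The most abundant of these was the glypican gene *Gpc3*, with 792 ± 54.4 CPM in WT and 838 ± 29.97 CPM in mEC1dup/dup (edgeR adjusted p = 0.449), followed by *Ndst1* and *Ext2*, which encode enzymes of heparan sulfate synthesis and had log2 fold changes of 0.04 each.

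Downstream of the ligand, none of 7 receptors and co-receptors and none of 22 cytoplasmic regulators of GLI was called. *Smo* stood at 350 ± 19.2 CPM in WT and 351 ± 17.3 CPM in mEC1dup/dup (SD of 5 libraries). Its difference on the log2 scale was 0.0012 (standard error 0.05). The co-receptor genes *Cdon* and *Gas1* had log2 fold changes of 0.02 and 0.10 (adjusted p = 0.954 and 0.456 from edgeR). Among the cytoplasmic regulators the log2 fold changes ran from -0.17 to 0.16, with *Csnk1a1*, *Gsk3b* and *Mgrn1* the most abundant and none of them beyond 0.05 in size to 2 decimals. Of 17 other target genes 16 were tested and none was called. Of these 16, 13 had a positive log2 fold change, against 8017 of all 16426 genes, with a median of 0.16 and a highest value of 0.76 (*Foxf2*). The 6 forkhead genes of the list, *Foxf1*, *Foxf2*, *Foxl1*, *Foxd1*, *Foxd2* and *Foxc2*, each had their lowest mEC1dup/dup value in replicate 1, and were named after their values were seen. The most abundant, the cyclin genes *Ccnd2* and *Ccnd1* and the parathyroid hormone receptor gene *Pth1r*, had log2 fold changes of 0.02, 0.10 and 0.01 (adjusted p = 0.900, 0.323 and 0.929 from edgeR).

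**Figure D5:**
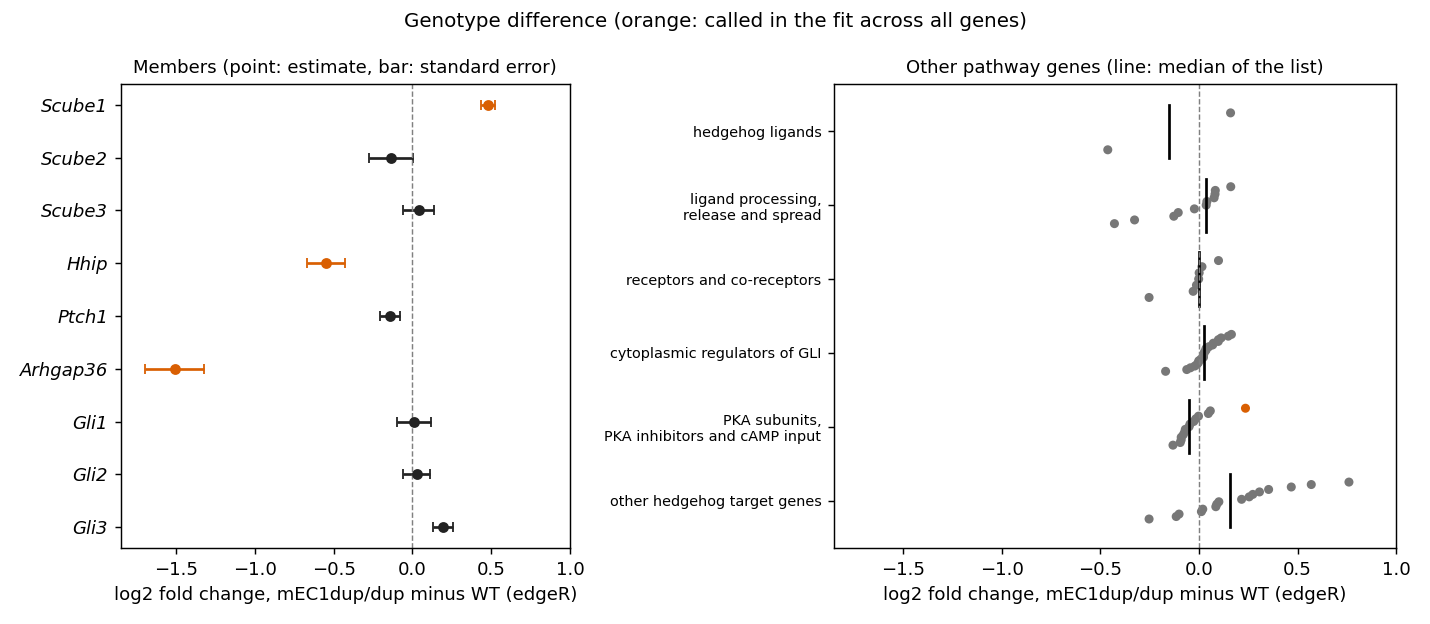
Log2 fold changes between mEC1dup/dup and WT from edgeR, with standard errors for the members (left) and as single genes for 6 lists of other pathway genes (right, with a line at the median of each list), orange where the gene was called. *Arhgap36* (-1.51) lies farthest from 0, and *Gpr161* (0.24) is the only orange point among the other pathway genes.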

How the data were processed

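RNA from whole E14.5 pinna prominences (5 WT and 5 mEC1dup/dup libraries) was poly-A selected and sequenced. The study's methods describe the replicates as independent embryos, taken as siblings of several litters, and the litter of each library is not given in the sources used here, so p-values measure the spread between these 10 libraries. The deposited values are raw counts per gene, 1 column per library, which the authors made with featureCounts after fastp trimming and STAR alignment (GRCm39). The strand setting is not given in the sources used here, and neither library kit named in the labels or methods marks strand. Of 53465 gene IDs, 49355 were matched to symbols in GENCODE.

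Counts were filtered with filterByExpr, normalized by TMM and tested two-sided with edgeR 4.0.16 (glmQLFit, glmQLFTest) in R 4.3.3, with Benjamini-Hochberg adjustment over 16426 genes, after the scripts were tested on simulated data. Standard errors are the log2 fold change divided by the square root of F. Log2 CPM for deviations used a prior count of 2. Replicates of a genotype differed by more than counting error in every pair. Libraries held 17461544 to 18462073 counts. The 9 members, gene lists, markers and rules for named genes were chosen with earlier results of these data known. Named pathway genes were those called and up to 3 more of each list with the highest mean CPM. Genes most like *Arhgap36*, *Gli1* and *Ptch1* were the 5 with the highest Pearson r of deviations among genes with an average log2 CPM of at least 1. Alternatives were other normalizations, DESeq2 1.42.0, limma-voom (limma 3.58.1), other filters, a replicate block, *Xist* as a covariate, libraries with under 100 *Xist* counts, and leaving out each library.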

Additional observations from a re-analysis of the deposited data

Results flagged for a closer look

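In 54 groups of 5 libraries (each member and named pathway gene in each genotype), 3 had a library whose gap to its nearest neighbour exceeded the share of the group's range in log2 CPM that Dixon's test allows. Chance gives such a gap in about 1 of 20 groups. *Gli1* had 36.8 CPM in mEC1dup/dup replicate 1, against 51.2 to 56.4 CPM in the other 4. *Gas1*, a hedgehog co-receptor gene, had 262 CPM in WT replicate 4, against 311 to 333 CPM in the other 4. *Gpr161* had 59.4 CPM in WT replicate 5, against 54.7 to 55.9 CPM in the other 4.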

How the results depend on the processing

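Over all genes, 297 were called lower and 137 higher. These counts were 510 and 321 with DESeq2's Wald test, 487 and 200 with the replicate block, 1 and 1 with the *Xist* covariate, and 0 and 0 in edgeR among libraries with under 100 *Xist* counts. In the last 2 fits 1450 and 1171 genes had an unadjusted p under 0.05, and 0 members were called lower, 0 members higher and 0 pathway genes higher. With 4 of 5 mEC1dup/dup libraries holding *Xist*, genotype and sex cannot be fully told apart. Leaving out each library gave 120 (without mEC1dup/dup replicate 3) to 476 (without WT replicate 4) genes lower and 34 to 179 higher, 1 to 2 members lower, and 0 to 2 pathway genes higher. The 2 were *Gpr161* and *Foxc2* without mEC1dup/dup replicate 1, *Foxc2* being named after its value was seen. The *Arhgap36*, *Hhip*, *Scube1* and *Gpr161* calls held with the other normalizations, tests and filters, among them total counts in place of TMM, chosen after seeing the data. Same-numbered libraries had a mean r of deviations of 0.16 (-0.06 to 0.34), against -0.04 for other pairs. Since 1 of the 5 was below 0.1 and not every library correlated best with its own number, the numbers were not taken as pairs here; shared litters were not tested. The replicate block changed no member or pathway call. Among uncalled members the sign of the log2 fold change turned in 5 alternatives for *Gli1*, 3 for *Scube3*, 1 for *Scube2* and 1 for *Gli2*. With the longest transcript as length, 5 of 9 WT ranks held. Depth limited *Shh* and *Nkx2-2*, which were not tested.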
